A study of Homo sapiens with 12 samples.

Results

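The milk secretory and prolactin pathway genes are 10 genes that carry the lactation programme of the breast, here followed through lapatinib tolerance in BT474 cells. They were chosen by name as the prolactin receptor PRLR, the transcription factors STAT5A, STAT5B and ELF5, and the milk secretion genes LTF, CSN3, CD36, XDH, BTN1A1 and WFDC2. All 10 were found among the 26485 genes of the expression table. BT474 is a HER2-positive human breast cancer cell line, unmodified here (genotype WT), and lapatinib inhibits the kinases of HER2 and EGFR. mRNA was sequenced from 4 groups of 3 libraries, namely Control cells at day 0, DTP (drug-tolerant persister) cells at day 9, DTEP (drug-tolerant expanded persister) cells at month 6 and LR (long-term resistant) cells at month 9. Lapatinib at 1 µM was renewed at fixed intervals, and the Control libraries, which carry the same treatment label, were read as untreated from their titles. Every group comes from this single line, and Control cells were taken at day 0, so the drug and the time in culture cannot be told apart. The libraries of a group are described once as technical replicates and once as parallel plates, so every SD and p-value below measures the spread between these libraries only.

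Levels are normalised read counts, which are reads scaled by the authors to a near-equal total per library. Depth was 16383363 to 25030482 assigned reads per library, and 1 read was worth 0.0412 to 0.0576. A library without a read allowed a level of up to 3 reads, or 0.124 to 0.173, for counting error only. Counting intervals on ratios pool the reads of a group and also leave out the spread between libraries. A gene entered the test when 3 or more libraries reached a level of 1, as 13794 genes and 5 of the 10 members did. A call needed both a limma adjusted p below 0.05 and a log2 change past 2 in size, on log2(level + 1). Agreement between libraries was lowest in DTEP, with a Pearson's r across genes of 0.934 to 0.982. DTEP replicate 3 stood apart from its group, since its r was 0.934 to 0.962 with other DTEP libraries but 0.971 to 0.986 with those of LR, so results that rest on it are given with and without it. In RNA from whole cultures, fewer cells making a transcript and less transcript per cell cannot be told apart.

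Prolactin binds PRLR on mammary luminal cells, and the receptor-bound kinase JAK2 then phosphorylates STAT5A and STAT5B, which enter the nucleus and act on milk protein genes. ELF5, an ETS-family factor, acts with STAT5 and sets the secretory alveolar fate of luminal progenitors. In lactation the alveolar cells secrete caseins and whey proteins, and they bud off milk fat globules in a membrane that holds XDH, butyrophilin (BTN1A1) and CD36.

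The stretches before the starts of the members whose levels moved most are shown, since STAT5 and ETS factors bind short motifs there. RefSeq starts were matched for all 10 members, 20 starts in total (GRCh38.p14, which is hg38). Each line gives the 250 bases before a start, 5′ to 3′ on the minus strand, on which all 5 genes lie. Capitals mark TTCNNNGAA, the STAT5-type palindrome, and GGAAG or its reverse complement, an ETS-type core. For PRLR the outermost of 2 starts is shown, and for LTF the innermost of 3, which held both motifs. The starts shown for ELF5, STAT5B and LTF lie inside their gene records, which end at 34513794, 42288370 and 46485234.
PRLR, chr5:35230488-35230737: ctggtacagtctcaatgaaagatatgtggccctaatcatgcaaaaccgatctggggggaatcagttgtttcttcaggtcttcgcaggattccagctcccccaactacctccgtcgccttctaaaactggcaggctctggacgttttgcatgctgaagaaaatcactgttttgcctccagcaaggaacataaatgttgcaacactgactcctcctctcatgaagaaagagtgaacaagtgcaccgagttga
STAT5B, chr17:42276392-42276641: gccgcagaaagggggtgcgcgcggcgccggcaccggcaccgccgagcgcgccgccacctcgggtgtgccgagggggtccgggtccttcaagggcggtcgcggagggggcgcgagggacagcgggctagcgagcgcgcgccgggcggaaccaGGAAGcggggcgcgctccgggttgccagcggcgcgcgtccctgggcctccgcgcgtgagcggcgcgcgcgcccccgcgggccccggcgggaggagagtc
ELF5, chr11:34511725-34511974: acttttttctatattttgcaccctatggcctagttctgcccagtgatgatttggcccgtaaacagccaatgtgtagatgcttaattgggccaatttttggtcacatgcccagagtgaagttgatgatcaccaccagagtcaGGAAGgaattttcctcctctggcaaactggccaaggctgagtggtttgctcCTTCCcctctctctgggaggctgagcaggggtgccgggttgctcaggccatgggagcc
XDH, chr2:31414743-31414992: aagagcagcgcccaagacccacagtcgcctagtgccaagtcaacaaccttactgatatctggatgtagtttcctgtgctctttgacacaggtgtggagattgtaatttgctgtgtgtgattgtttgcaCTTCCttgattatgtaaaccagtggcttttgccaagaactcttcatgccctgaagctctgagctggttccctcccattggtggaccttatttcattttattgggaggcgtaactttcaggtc
LTF, chr3:46463655-46463904: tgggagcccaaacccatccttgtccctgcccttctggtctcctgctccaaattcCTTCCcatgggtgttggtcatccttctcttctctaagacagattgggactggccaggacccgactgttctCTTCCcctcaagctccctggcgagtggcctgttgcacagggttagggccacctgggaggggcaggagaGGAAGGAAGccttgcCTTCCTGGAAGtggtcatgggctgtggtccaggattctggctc
The PRLR window held neither motif. GGAAG was found at bases 142 and 193 of the ELF5 window, at base 129 for XDH and at base 152 for STAT5B. In the LTF window TTCNNNGAA began at base 209 and overlapped an ETS-type core on each side. Over all RefSeq starts, 6.57% of 35116 windows of this length held TTCNNNGAA and 65.1% held GGAAG. Of the 20 member starts, 2 held TTCNNNGAA (1 of LTF and 1 of CD36) and 15 held GGAAG, in 9 of the 10 genes. A match of letters is a description and not a binding site.

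PRLR fell on entry into tolerance, and ELF5 fell and XDH rose when growth resumed. PRLR was the only one of the 5 tested members called in DTP against Control cells, where it was lower, beside 4.92% of all tested genes called (1.01% higher, 3.9% lower). In DTEP against DTP cells ELF5 was called lower and XDH higher, in a comparison that called 15.2% of genes (8.13% higher, 7.02% lower). In LR against DTEP cells ELF5 was called lower, where 0.681% of genes were called (0.225% higher, 0.457% lower). Against Control cells, DTEP cells again had ELF5 lower and XDH higher, beside 10.6% of genes called (4.43% higher, 6.2% lower). LR cells had ELF5 and STAT5B lower and XDH higher than Control, beside 12.8% of genes called (5.03% higher, 7.8% lower). The adjusted p alone was a weak filter, passed in the same order of comparisons by 54%, 68.2%, 7.35%, 58.2% and 62.8% of genes, and the libraries of both groups did not overlap for 77.3%, 67.3%, 22.5%, 65.6% and 77% of genes. These comparisons share groups, so they are not independent of each other. XDH passed the filter only through its DTEP and LR libraries, and LTF only through Control and DTP libraries, so the counts describe these genes and support no statement on the set. The other 5 members, STAT5A, CSN3, CD36, BTN1A1 and WFDC2, had too few reads to be tested.

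**Figure D1:**
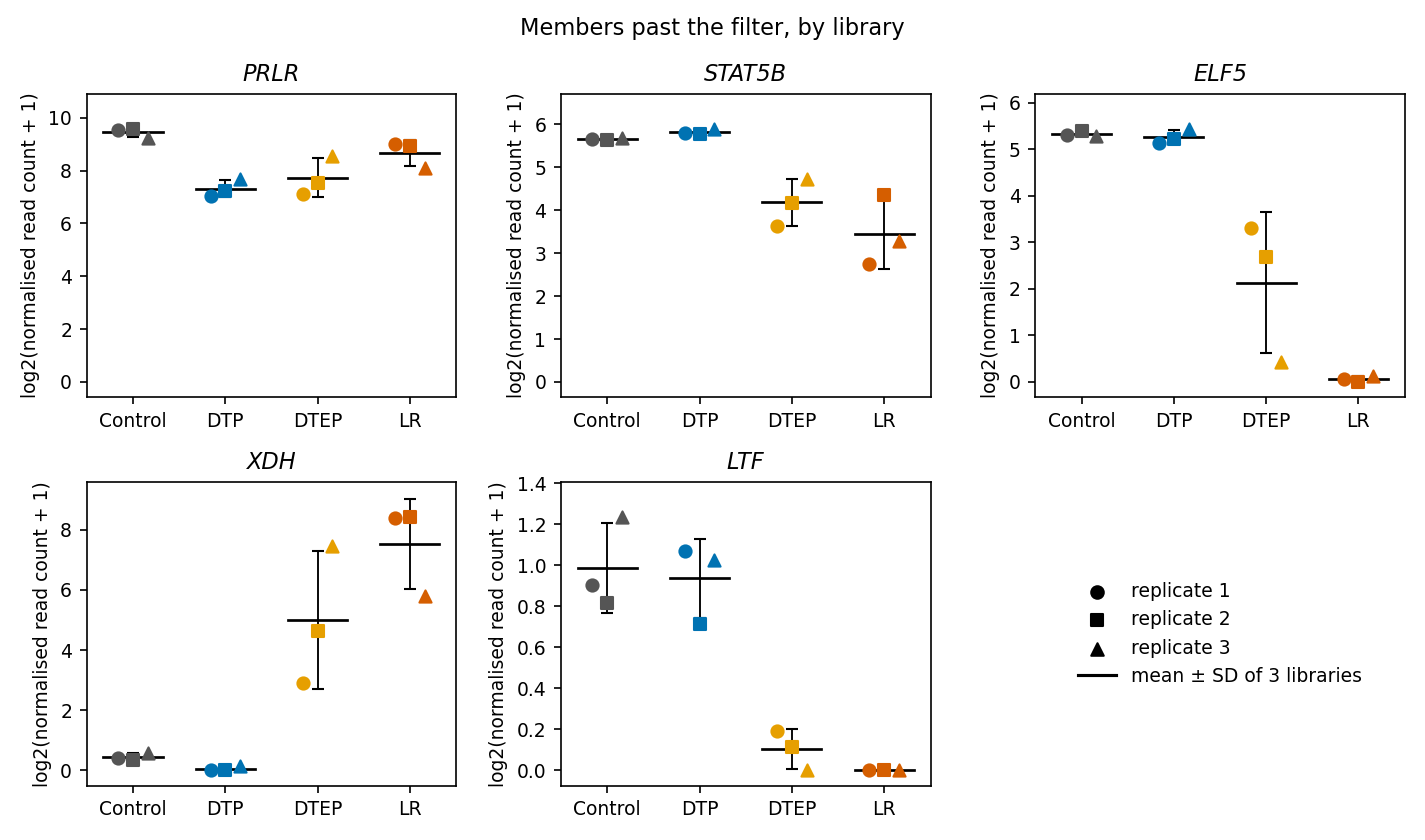
Levels of the 5 tested members in each of the 12 libraries, as log2(normalised read count + 1), with the mean and SD of the 3 libraries of Control, DTP, DTEP and LR. PRLR drops in DTP, ELF5 and STAT5B are lower from DTEP on, XDH is high in DTEP and LR, and the vertical scale of LTF ends near 1.4, far below that of the others.

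PRLR, the receptor for prolactin, fell on entry into tolerance. Its level was 738, 762 and 601 in the Control libraries and 132, 147 and 204 in the DTP libraries. It was 136, 185 and 374 in DTEP and 512, 481 and 276 in LR. All DTP libraries lay below all Control libraries, while the DTEP range overlapped with those of both DTP and LR. The mean went from 700.5 ± 87.3 (SD, n = 3) in Control to 161 ± 37.9 (SD, n = 3) in DTP cells, a 4.35-fold drop (log2 change -2.13 ± 0.34 SE, limma, adjusted p = 0.000282). Between DTP and DTEP the log2 change was 0.41 (limma, adjusted p = 0.296). Between DTEP and LR it was 0.95 (limma, adjusted p = 0.0823), and it was 1.36 without DTEP replicate 3 (limma, adjusted p = 0.00186). PRLR in DTEP was 3.03-fold below Control (log2 change -1.72, limma, adjusted p = 0.000879), short of the size limit, and at -2.13 it was past that limit without DTEP replicate 3. In LR cells the level was 1.66-fold below Control without overlap of the libraries, and the log2 change of -0.77 did not pass the test (limma, adjusted p = 0.0639), with a 95% confidence interval of -1.50 to -0.04.

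STAT5B, one of the paralogous factors that JAK2 activates, was lower in the cells that regrew. The Control libraries had 49.4, 48.3 and 50.3, and the DTP libraries had 54.4, 54.1 and 58.3. The DTEP libraries had 11.5, 17.1 and 25.4, and the LR libraries had 5.66, 19.4 and 8.67. Every DTEP and LR library lay below every Control and DTP library, and DTEP and LR overlapped. The level in DTP cells was 1.13-fold that of Control (log2 change 0.17, limma, adjusted p = 0.711). From DTP to DTEP it was 3.09-fold lower (log2 change -1.64 ± 0.35 SE, limma, adjusted p = 0.00123), past the adjusted p but not the size limit. In LR against Control cells STAT5B was called at 4.38-fold lower (log2 change -2.20 ± 0.35 SE, limma, adjusted p = 0.000165). Without LR replicate 1, the lowest library, that change was -1.84 and was not called, and without LR replicate 2 the fold was 6.88. LR and DTEP differed by -0.73 (limma, adjusted p = 0.160).

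STAT5A, the paralog first described as mammary gland factor, was barely read. A total of 24 reads were assigned to it in the 12 libraries, of which Control held 8, DTP 14, DTEP 2 and LR 0. The 3, 0 and 5 reads of the Control libraries overlapped with the 3, 5 and 6 reads of the DTP libraries. The ratio of DTP to DTEP levels was 7.77, with a 95% counting interval of 1.78 to 70.4. That of Control to DTEP was 4.09, with an interval of 0.816 to 39.5 and overlapping libraries, so no fall from Control was shown. STAT5A and STAT5B lie on opposite strands of chromosome 17 and share 932 bases (chr17:42287439-42288370), and their coding sequences are alike. Whether reads were split or dropped between them under strand-blind counting was not tested. The difference STAT5A minus STAT5B on the log2(level + 1) scale moved by 1.37 from DTP to DTEP and by 2.04 from Control to LR (two-sided exact permutation test, p = 0.1 for each, the smallest that 3 against 3 libraries allow). With STAT5A this low, that difference follows STAT5B.

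ELF5, the alveolar fate factor, was called lower in DTEP cells and had almost no reads in LR cells. The Control libraries had 38.8, 41.0 and 38.2, and the DTP libraries had 34.3, 36.3 and 42.4. The DTEP libraries had 8.95, 5.40 and 0.337, and the LR libraries had 0.0422, 0 and 0.0969, which are 1, 0 and 2 reads. Control and DTP overlapped, each later group lay below the one before, and DTEP replicate 3 was far below the other DTEP libraries. The log2 change from Control to DTP was -0.07, with a 95% confidence interval of -1.22 to 1.09 (limma, adjusted p = 0.932). From DTP to DTEP the mean went from 37.7 ± 4.21 to 4.89 ± 4.33 (SD, n = 3 each), a 7.70-fold drop (log2 change -3.13 ± 0.53 SE, limma, adjusted p = 0.000220). Without DTEP replicate 3 the change was -2.27 and was still called (limma, adjusted p = 1.35e-06). The DTEP mean was 2.87 without DTEP replicate 1. From DTEP to LR the ratio was 107, with a counting interval of 36.3 to 521 from 3 reads in LR. That interval leaves out the spread of the DTEP libraries, which ran from 0.337 to 8.95. The log2 change from DTEP to LR was -2.07 (limma, adjusted p = 0.0405). Its call was lost when any library other than DTEP replicate 3 was left out, and without DTEP replicate 3 it was -2.93 and called (limma, adjusted p = 6.81e-06). In LR against Control cells ELF5 was lower (log2 change -5.27 ± 0.53 SE, limma, adjusted p = 3.68e-06), and the ratio of levels was 816 with a counting interval of 279 to 3959.

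XDH, the xanthine dehydrogenase that closes purine breakdown and also shapes the milk fat globule membrane, rose in the regrowing cells. The Control libraries had 0.322, 0.272 and 0.512, which are 7, 5 and 11 reads, and the DTP libraries had 0, 0 and 0.115, which are 0, 0 and 2 reads. The DTEP libraries had 6.55, 24.0 and 175, and the LR libraries had 337, 340 and 55.2. Each DTEP and LR library lay above each Control and DTP library, the DTEP values spread over more than 1 order of magnitude, and DTEP and LR overlapped because DTEP replicate 3 was above LR replicate 3. The DTP level was lower than that of Control by a ratio of 10.6 with a counting interval of 2.62 to 92.8, and the log2 change of -0.40 did not pass (limma, adjusted p = 0.747). The DTEP mean of 68.6 ± 92.8 (SD, n = 3) was 186-fold above Control (log2 change 4.56 ± 0.93 SE, limma, adjusted p = 0.00114). Against DTP the log2 change was 4.96 ± 0.93 (SE, limma, adjusted p = 0.000473). Without DTEP replicate 3 the DTEP mean was 15.3, and the changes against Control and DTP were 3.33 and 3.73, both still called. The LR mean of 244 ± 164 (SD, n = 3) was 662-fold above Control (log2 change 7.09 ± 0.93 SE, limma, adjusted p = 3.29e-05). LR against DTEP gave 2.53 (limma, adjusted p = 0.0875), which was not called, although it was called at 3.76 without DTEP replicate 3 and at 3.40 without LR replicate 3.

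LTF, the iron-binding milk protein lactoferrin, was low but detected in untreated cells and was not detected in LR. The Control libraries had 0.874, 0.761 and 1.35, or 19, 14 and 29 reads, and the DTP libraries had 1.10, 0.642 and 1.04. The DTEP libraries had 0.144, 0.0824 and 0, and the LR libraries had no read. DTEP and LR lay below Control and DTP in every library. The LR level was at least 5.99-fold lower than that of Control, taken against 3 reads per library. DTEP was below DTP by a ratio of 11.5, with a counting interval of 4.64 to 37.0. On the log2(level + 1) scale the changes were small, at -0.83 for DTEP against DTP (limma, adjusted p = 0.000180) and -0.99 for LR against Control (limma, adjusted p = 5.68e-05), which passed the adjusted p but not the size limit. LTF was past that limit with a pseudocount of 0.1 and in count tests of the recovered reads.

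**Figure D2:**
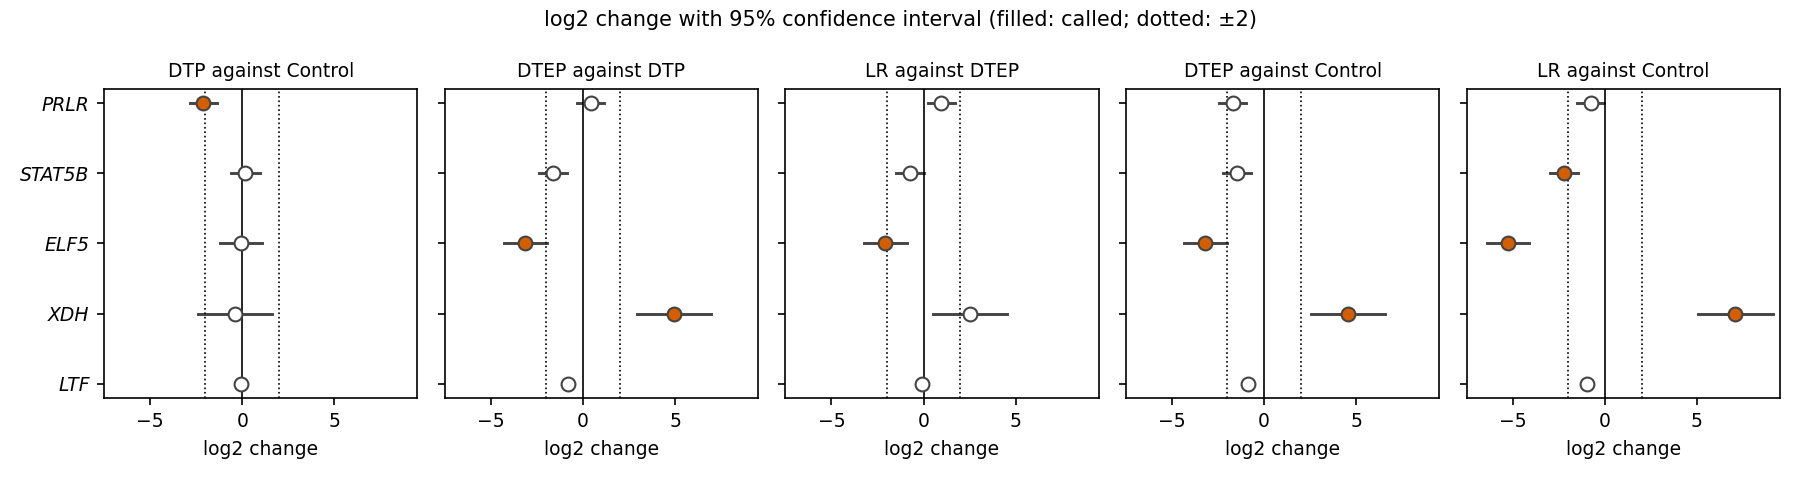
The log2 change (horizontal axis) of each tested member in the 5 comparisons, with its 95% confidence interval from limma, filled where called and with dotted lines at -2 and 2. PRLR is filled for DTP against Control, and ELF5 and XDH for DTEP against DTP and for DTEP against Control. ELF5 is filled for LR against DTEP, and ELF5, STAT5B and XDH for LR against Control.

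The other milk secretion members were at or near the floor in every group. CSN3, the kappa-casein that holds casein micelles in solution, had no read in any of the 12 libraries, so any level in these libraries was under what 3 reads allow, and a lower one was not detectable at this depth. BTN1A1, the butyrophilin that pairs with XDH in the milk fat globule membrane, had 5 reads in all, 2 of them in DTP and 3 in LR. CD36, a fatty acid transporter, had 36 reads, split 3, 6 and 9 over Control, 2, 1 and 4 over DTP, 6, 0 and 1 over DTEP and 0, 0 and 4 over LR libraries. WFDC2, a secreted whey acidic protein family member, had 51 reads, split 4, 6 and 6 over Control, 4, 12 and 2 over DTP, 2, 1 and 1 over DTEP and 3, 10 and 0 over LR libraries. Within a group, 1 library could hold most reads, as DTEP replicate 1 did for CD36 and DTP replicate 2 and LR replicate 2 for WFDC2. The WFDC2 libraries of DTEP lay below those of Control, at a ratio of 4.09 with a counting interval of 1.32 to 16.8. BTN1A1 and WFDC2 are members of gene families, and reads shared with near copies were not resolved.

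**Figure D3:**
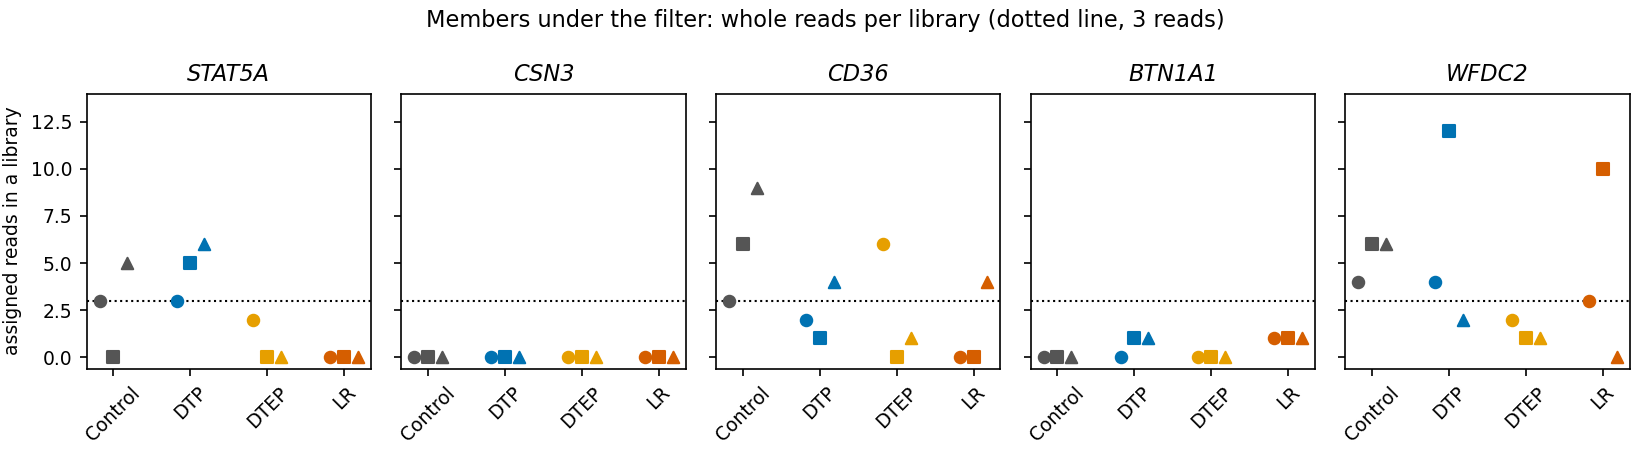
Whole reads assigned to the 5 untested members in each library, by group and replicate (circle, square and triangle for replicates 1, 2 and 3), with a dotted line at 3 reads. CSN3 stays at 0 throughout, BTN1A1 never exceeds 1, and the highest library is DTP replicate 2 for WFDC2 with 12 reads.

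To place the members in their pathway, 92 further genes in 3 lists were read from the same fit. Of these, 66 passed the filter. Among the 33 tested of 38 genes for prolactin receptor signalling, 2 were called higher and 1 lower in DTP against Control, 4 higher and 3 lower in DTEP against DTP, and 4 higher and 1 lower in LR against Control. Over all tested genes the shares called higher and lower were 1.01% and 3.9%, 8.13% and 7.02%, and 5.03% and 7.8% in these comparisons. The median log2 change of the list in LR against Control was 0.34, beside -0.03 over all tested genes. The ligands had no or almost no reads. PRL, which encodes prolactin, and the placental lactogens CSH1 and CSH2 had no read in any library, and GH1, growth hormone, had 1 read.

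JAK2, the kinase that PRLR needs, was not called anywhere. The Control libraries had 3.86, 4.78 and 3.35 and those of DTP had 1.77, 1.63 and 3.28. The DTEP libraries had 4.83, 4.65 and 13.3 and those of LR had 13.8, 15.4 and 15.5. The LR libraries lay above all others, with DTEP replicate 3 just beneath them. LR was 3.73-fold above Control (log2 change 1.68, limma, adjusted p = 0.000704), past the adjusted p but not the size limit. GHR, the growth hormone receptor of the same receptor family, fell 5.15-fold in DTP (log2 change -2.31, limma, adjusted p = 7.59e-06) and rose 8.50-fold from DTP to DTEP (log2 change 3.01, limma, adjusted p = 2.37e-07).

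The feedback inhibitors CISH, SOCS1, SOCS2 and SOCS3 had DTP libraries that lay above those of Control without overlap. In this comparison 77.3% of all tested genes did not overlap, in either direction. SOCS1 and SOCS2 were 3.27-fold and 2.29-fold higher there (limma, adjusted p = 0.00188 and 0.0302), short of the size limit, and CISH was 1.23-fold higher and did not pass (limma, adjusted p = 0.195). CISH, a STAT5 target that was picked after its values were seen, had 32.1, 32.3 and 34.9 in Control and 96.5, 105 and 71.9 in LR. It was 2.75-fold higher in LR (log2 change 1.42, limma, adjusted p = 2.43e-05), short of the size limit, in the same libraries in which STAT5B was lower. SOCS2 had 26.8, 24.4 and 27.9 in Control and 134, 259 and 64.3 in LR, a 5.78-fold rise (log2 change 2.27, limma, adjusted p = 0.000404). Without LR replicate 2 that change was 1.78, or 3.76-fold, and was not called. SOCS2 was also the 1 list gene called in LR against DTEP (log2 change 2.02, limma, adjusted p = 0.0188), and that call was lost without DTEP replicate 1 or 2 or LR replicate 1 or 2, and with only the 6 libraries compared. SOCS3 rose 5.63-fold in DTP cells (log2 change 2.11, limma, adjusted p = 1.93e-05), with 12.9, 15.4 and 13.9 there against 2.81, 2.72 and 1.96 in Control. Without Control replicate 3 its change was just under the size limit.

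Among the other transducers, STAT6, the interleukin-4 pathway factor, went from 3.17 ± 0.43 in Control to 148 ± 38.0 in DTEP and 316 ± 97.3 in LR (SD, n = 3 each). Its log2 change was 5.13 in DTEP and 6.21 in LR against Control (limma, adjusted p = 5.88e-09 and 1.27e-09). GRB2, the adaptor to the RAS pathway, rose 6.13-fold in DTEP against Control (limma, adjusted p = 3.79e-08). SIRPA, a membrane partner of tyrosine phosphatases, rose 28.9-fold (limma, adjusted p = 5.06e-09). SRC and FYN, kinases that PRLR can engage, both fell from DTP to DTEP, by 21.0-fold and 15.9-fold (limma, adjusted p = 6.76e-08 and 3.27e-07). CAV1, a caveolar protein that restrains JAK2, rose 22.3-fold in DTP and fell 15.3-fold from DTP to DTEP (limma, adjusted p = 6.46e-05 and 2.25e-05). The DTEP libraries of these 3 genes spread widely, at 0.813, 0.453 and 0.112 for SRC, 1.00, 0.371 and 0.112 for FYN and 7.22, 2.80 and 0.112 for CAV1. Without DTEP replicate 1 the drops from DTP were 34.1-fold, 32.6-fold and 35.4-fold.

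**Figure D4:**
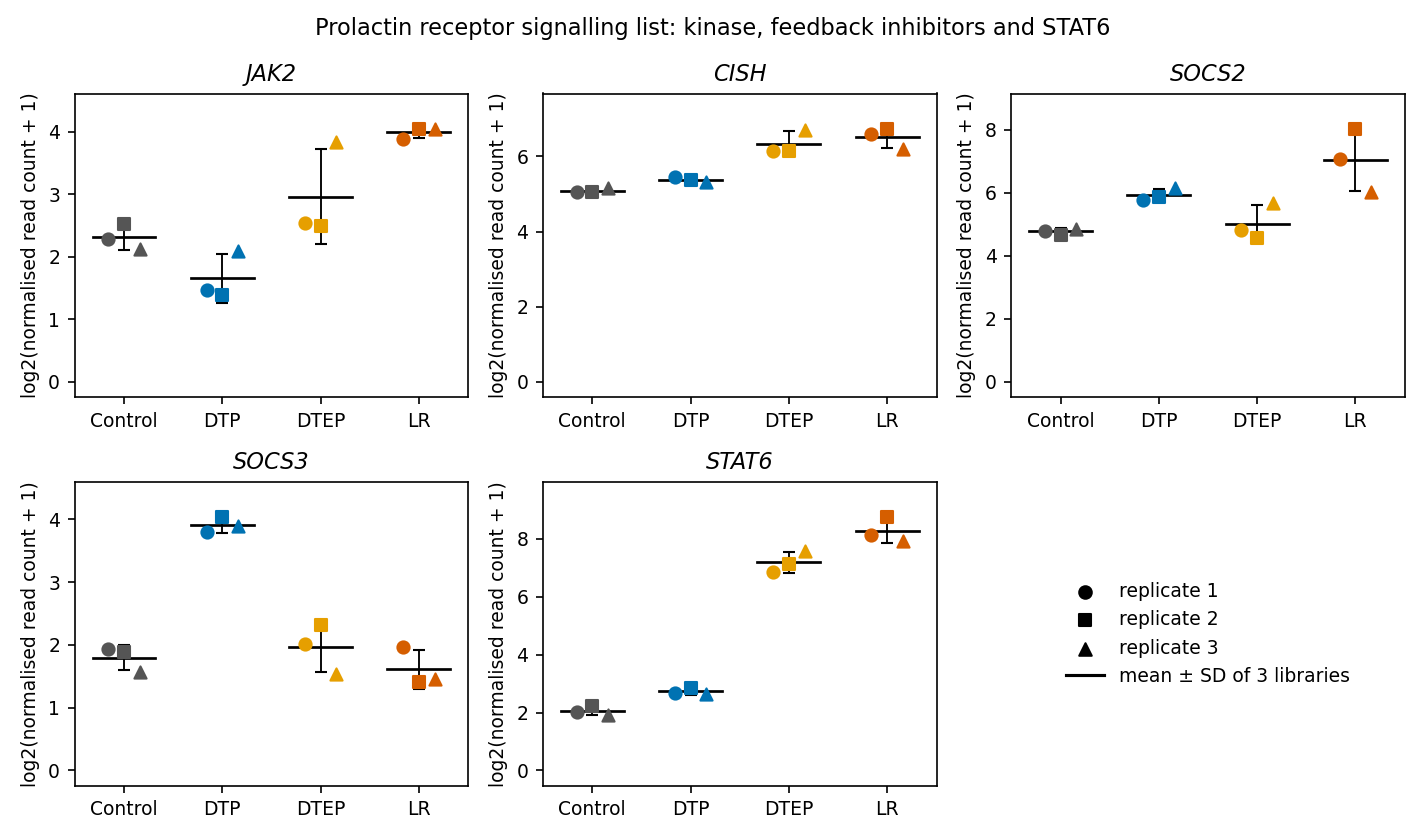
Levels of JAK2, CISH, SOCS2, SOCS3 and STAT6 in each library, as log2(normalised read count + 1), with the mean and SD of each group of 3. SOCS3 is high in DTP, STAT6 is high in DTEP and LR, and the LR libraries of JAK2 lie above all others.

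The second list holds regulators of the alveolar lineage, 16 of 19 tested. In DTEP against DTP cells 6 were called higher and 1 lower, beside 8.13% and 7.02% of all tested genes. In LR against Control cells 3 were called higher and 1 lower, beside 5.03% and 7.8%. The list's median log2 change was 0.81 in DTEP against DTP, beside 0.08 over all tested genes, and 0.95 in LR against Control. EHF, an ETS factor of the same subfamily as ELF5 and its neighbour on chromosome 11, rose 5.76-fold from DTP to DTEP (log2 change 2.48, limma, adjusted p = 3.78e-06). The Control libraries had 218, 228 and 227, those of DTP 84.0, 96.5 and 137, those of DTEP 439, 505 and 884 and those of LR 914, 648 and 886, so the EHF libraries were highest in the groups where those of ELF5 were lowest. NR3C1, the glucocorticoid receptor, was 21.5-fold higher in LR than in Control, GATA3, the luminal master factor, was 6.57-fold higher, and ERBB4, a receptor that activates STAT5A in the breast, was 10.9-fold higher (limma, adjusted p = 1.66e-08, 2.05e-07 and 0.00668). ERBB4 spread widely, with 29.4, 53.3 and 160 in DTEP and 214, 123 and 18.3 in LR, and without LR replicate 1 its LR level was 6.48-fold above Control. Its change in DTEP against Control was 2.44 (limma, adjusted p = 0.0144), and it was 1.78 and not called without DTEP replicate 3.

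SREBF1, the regulator of lipid synthesis, fell 4.21-fold in DTP and rose 14.3-fold from DTP to DTEP (limma, adjusted p = 3.41e-05 and 8.08e-08). Its fall in DTP was -2.05 on the log2 scale and -1.90, not called, without DTP replicate 3. XBP1, a factor for secretory capacity, was 4.04-fold higher in DTEP than in Control at a log2 change of 2.01 (limma), which was 1.95 and not called without DTEP replicate 1, with DESeq2 and with median-of-ratios scaling. TFAP2C was 4.13-fold lower in LR than in Control at a log2 change of -2.03 (limma, adjusted p = 8.42e-07), and it was just under the limit without LR replicate 2 or LR replicate 3, with -1.99 for the former and -1.96 with edgeR. From DTP to DTEP TFAP2C fell by 2.07 on the log2 scale (limma, adjusted p = 7.07e-07), with -1.99 and -1.93 without DTEP replicates 2 and 3, neither called.

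Of 35 other milk secretion genes only 17 could be tested, and 7 had no read in any library. The latter included CSN1S1 and CSN2, which encode caseins, LALBA, the lactose synthase subunit alpha-lactalbumin, and PIGR, the receptor that carries antibodies into milk. In DTP against Control 0 were called higher and 2 lower, beside 1.01% and 3.9% of all tested genes, and in DTEP against DTP 3 were called higher and 2 lower, beside 8.13% and 7.02%. FASN and SCD, enzymes of fatty acid synthesis, fell 5.52-fold and 34.3-fold in DTP (limma, adjusted p = 2.61e-05 and 6.08e-06) and rose 4.29-fold and 26.4-fold from DTP to DTEP (limma, adjusted p = 3.71e-05 and 3.97e-06). The FASN rise of 2.02 on the log2 scale was not called without DTEP replicate 2, at 1.68, or without DTP replicate 2, at 1.96, nor with DESeq2 or median-of-ratios scaling, at 1.97 and 1.91. PLIN2, the coat protein of lipid droplets that is carried into milk fat globules, was at 21.0, 19.9 and 21.1 in Control libraries and at 18.3, 18.4 and 20.3 in those of DTP. It was at 2.20, 0.989 and 0 in DTEP libraries and had no read in LR, at least 125-fold lower than in Control (limma, adjusted p = 1.79e-07). In both PLIN2 and ELF5 the DTEP libraries lay below those of Control and DTP, DTEP replicate 3 was the lowest of them, and LR was at or near 0. MUC1, a mucin of the milk fat globule membrane, fell 11.2-fold in DTEP and 18.1-fold in LR against Control (limma, adjusted p = 5.32e-07 and 1.49e-07). HK2, a hexokinase, the enzyme of the first step of glucose use, rose 5.02-fold from DTP to DTEP (limma, adjusted p = 2.02e-06). No gene of this list was called in LR against DTEP by limma, 0 passed the adjusted p alone, and the list's median was -0.14 beside -0.07 over all genes.

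**Figure D5:**
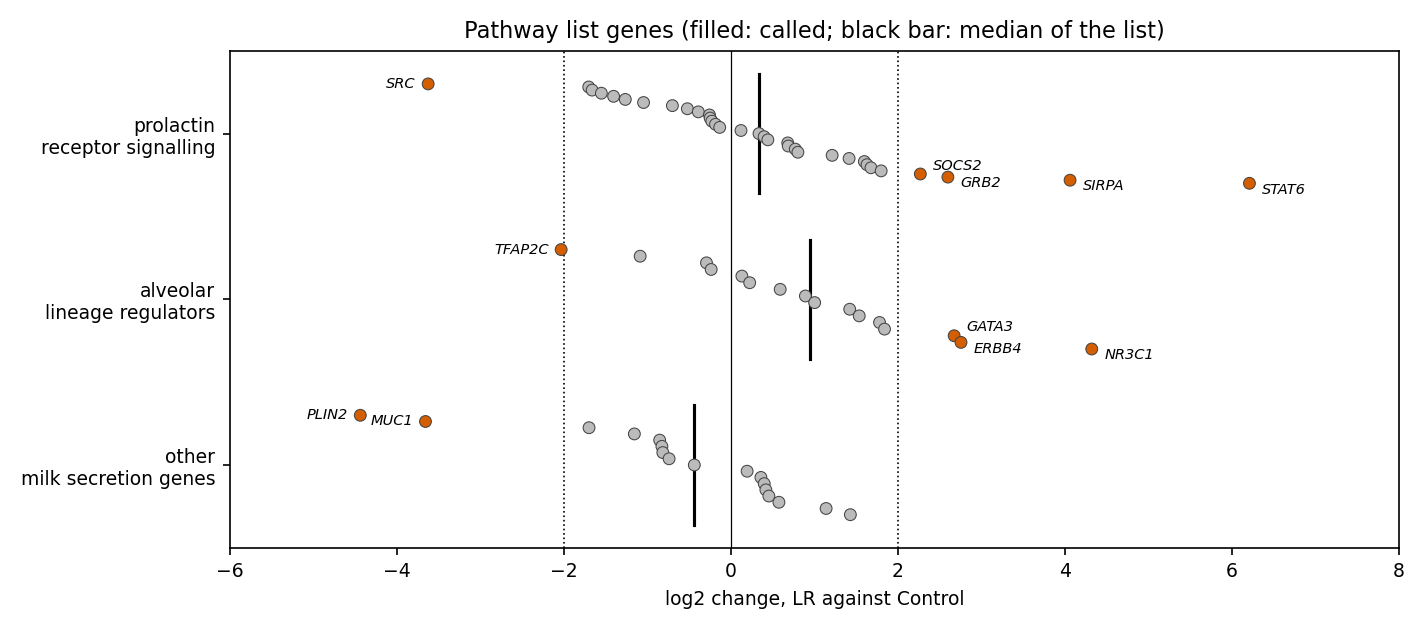
The log2 change of LR against Control for the tested genes of the 3 pathway lists, 1 point a gene, filled and named where called, with a black bar at the list's median and dotted lines at -2 and 2. STAT6 lies farthest to the right at 6.21 and PLIN2 farthest to the left at -4.44, and the medians are 0.34, 0.95 and -0.44.

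Markers of the cell of origin and of other cell types were read beside these results. The 5 luminal markers EPCAM, KRT8, KRT18, KRT19 and ERBB2 were all tested, and their summed level ranged over 9202 to 9919 for Control, 11575 to 14188 for DTP, 2926 to 5077 for DTEP and 2915 to 3788 for LR libraries. ERBB2, which encodes the target of lapatinib and lies 2.51 Mb from STAT5B, was the largest part of that sum in each group. Its mean was 6526 in Control and 1627 in DTEP, a 4.01-fold fall (limma, adjusted p = 1.04e-05). KRT8 was 2.76-fold lower in DTEP than in Control, KRT18 and KRT19 overlapped with Control (limma, adjusted p = 0.198 and 0.235), and EPCAM was 1.61-fold higher (limma, adjusted p = 0.00161). In LR against Control, KRT8, KRT18 and KRT19 were 2.81-fold, 1.53-fold and 2.53-fold lower (limma, adjusted p = 0.000428, 0.0291 and 0.00378). EPCAM did not pass there (limma, adjusted p = 0.142).

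Of the 5 basal markers, KRT5 and KRT14 had at most 2 reads in a library. TP63, a transcription factor of basal cells, was 6.28-fold lower in DTP than in Control (limma, adjusted p = 0.0141), short of the size limit. It was called 19.4-fold higher in DTEP than in DTP and 8.63-fold higher in LR than in Control, and without DTEP replicate 2 the former was 10.8-fold. Against Control, DTEP was 3.09-fold higher and did not pass (limma, adjusted p = 0.0697). MYLK, a kinase of contractile cells, was lower in DTEP than in Control at a log2 change of -1.95, past the adjusted p but not the size limit. The basal list summed to 8.48 to 9.24 in Control libraries, 1.25 to 3.05 in those of DTP, 5.93 to 29.2 in those of DTEP and 17.9 to 66.2 in those of LR. In each of the fibroblast, adipocyte and endothelial lists 1 gene was tested. COL1A1, a fibrillar collagen, was higher in DTEP and LR than in Control by log2 changes of 0.82 and 0.98, past the adjusted p but not the size limit, while the fibroblast markers PDGFRA, PDGFRB and DCN were near 0. PLIN1, a lipid droplet coat protein, was 4.11-fold higher in DTP than in Control, while ADIPOQ, FABP4 and LEP were near 0. VWF, the von Willebrand factor, was called 38.3-fold lower in DTEP than in Control, and 64.5-fold without DTEP replicate 1. PECAM1 and KDR of the endothelial list were near 0. The leukocyte list summed to at most 0.138, with CD3E and ELANE at 0. Some markers, such as ERBB2 and KRT8, differed from Control in DTEP and LR (limma, adjusted p below 0.05), as ELF5, STAT5B and XDH did. KRT18 and KRT19 did not differ in DTEP. In DTP against Control, PRLR was called, while ELF5, STAT5B, XDH and LTF did not pass the adjusted p. There EPCAM, KRT18, TP63, MYLK, PLIN1 and VWF passed it, as did 54% of all tested genes. The part of these markers in the results was not tested.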

How the data were processed

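Stranded mRNA libraries were sequenced by the authors, and Rsubread at its default settings, which ignore strand, aligned reads to hg38 and counted them over RefSeq gene models. The deposited table holds a normalized signal for 26485 genes in 12 libraries. Divided by the value of 1 read, each of the 199680 nonzero values (100%) came within 1e-06 of a whole number, so reads were recovered. The scaling by the authors equalled TMM-scaled CPM as recomputed with edgeR 4.0.16. The submitters' processing notes also name bcl2fastq and edgeR.

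A linear model without covariates was fitted in limma 3.58.1 (R 4.3.3) to log2(value + 1) of the 12 libraries, with a trended variance, for the 13794 genes that reached a value of 1 in 3 or more libraries. Tests were two-sided with Benjamini-Hochberg adjustment over all tested genes in each of 5 comparisons. Fold changes are ratios of group means, and the pseudocount of 1 makes log2 changes of low genes too small. Where a group had at most 3 reads in every library, ratios carry exact 95% binomial counting intervals, and where it had none they are lower bounds. The intervals pool the reads of each group and leave out the spread between its libraries. The steps were tested on simulated reads.

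The 10 members and the pathway lists were chosen with earlier results of these data known. Named besides were the list genes called in a comparison (for lists with over 6 calls, the 3 largest and 3 smallest log2 changes), PRL, JAK2, CSN1S1, CSN2 and LALBA, called neighbours (among the 2 nearest tested genes on each side of a member), and for each member called the 3 genes with the nearest profile, 1 of which is not reported here. Any other gene is background or was named after its values were seen. Alternatives were DESeq2 1.42.0 and the quasi-likelihood test of edgeR on those reads, median-of-ratios scaling, a pseudocount of 0.1, no filter, only the 6 libraries compared, an absolute log2 change above 1, the replicate number as a block, and each library left out in turn.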

Additional observations from a re-analysis of the deposited data

How the results depend on the processing

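In the replicate block fit, ELF5 in LR against DTEP was no longer called (log2 change -2.07, limma, adjusted p = 0.0514), which left 0 members called lower there, and the block changed no other call of a member. Deviations of same-numbered libraries correlated at -0.44 to 0.36. Differently numbered libraries were not compared, so whether the replicate numbers pair the libraries was not settled. That ELF5 call was also lost without the filter and with only the 6 libraries compared (adjusted p = 0.0697 and 0.301, change -2.07, 0 members each). With DESeq2, edgeR and a pseudocount of 0.1, LTF became called in DTEP against Control (-3.74, -3.54 and -2.70), DTEP against DTP (-3.69, -3.49 and -2.61) and LR against Control (-6.83, -7.31 and -3.42). Members called lower then numbered 2 in DTEP against Control and 2 in DTEP against DTP, and with an absolute log2 change above 1 they numbered 3 and 2. The STAT5A to STAT5B difference of DTP against Control, -0.01, turned to 0.60 at the pseudocount of 0.1.

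For the pathway lists, an absolute log2 change above 1 called 12 genes higher and 10 lower in DTP against Control, 18 lower in DTEP against DTP, 15 higher and 6 lower in DTEP against Control, 20 higher and 12 lower in LR against Control and 4 higher in LR against DTEP. DESeq2 and the pseudocount of 0.1 called 10 lower in DTEP against DTP and 8 lower in LR against Control, where edgeR called 7. In LR against DTEP, genes called lower numbered 4 with DESeq2, 3 with edgeR and 1 with the pseudocount of 0.1, and with only the 6 libraries compared 0 were called higher.

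With single libraries left out, members called in LR against DTEP ranged from 0 to 1 in each direction. Those called lower ranged from 1 to 2 in DTEP against Control and in LR against Control. List genes called ranged from 1 to 2 higher in DTP against Control and from 0 to 1 in each direction in LR against DTEP. In DTEP against DTP they ranged from 12 to 13 higher and from 5 to 8 lower. List genes called lower ranged from 3 to 4 in DTP against Control and in LR against Control. Those called higher ranged from 6 to 7 in DTEP against Control and in LR against Control. The STAT5A to STAT5B difference of DTP against Control ranged from -0.081 to 0.043. It was 0.043 without Control replicate 3 and 0.026 without DTP replicate 1. LTF in the same comparison ranged from -0.13 to 0.075, at 0.075 without Control replicate 3 and 0.06 without DTP replicate 2. ELF5 in LR against DTEP ranged from -2.93 to -1.48, PRLR in DTEP against Control from -2.13 to -1.40, STAT5B in LR against Control from -2.65 to -1.84 and XDH in LR against DTEP from 1.49 to 3.76. The cause of these changes was not tested.

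Over all genes, the calls were 678, 2091, 94, 1466 and 1770 in DTP against Control, DTEP against DTP, LR against DTEP, DTEP against Control and LR against Control. They were 1270, 3288, 581, 2368 and 2773 with edgeR, 1271, 3254, 699, 2353 and 2760 with DESeq2, and 1181, 3142, 324, 2269 and 2698 with the pseudocount of 0.1. In LR against DTEP limma called 60 genes without the filter, 0 with only the 6 libraries compared and 25 to 306 with a library left out. Median-of-ratios scaling shifted the median gene by -0.10 in DTEP against DTP and turned no direction of a tested member.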

Other observations

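The 2 nearest tested genes on each side of every member were read as chromosome neighbours, 36 genes that are no member. In DTEP against DTP cells 4 of them were called higher and 1 lower (15.2% of all tested genes were called), and their median log2 change was -0.09 beside 0.08 over all genes. Both neighbours of XDH on the lower side of chromosome 2 moved with it. GALNT14, a glycosyltransferase that starts O-linked sugar chains, had 1.66, 1.85 and 2.05 in Control, 0.574, 0.790 and 0.806 in DTP, 143, 138 and 168 in DTEP and 216, 227 and 135 in LR. It was 80.6-fold above Control in DTEP (log2 change 5.72, limma, adjusted p = 1.09e-09), and unlike XDH its 3 DTEP libraries lay close together. EHD3, an endocytic recycling protein, was 4.84-fold higher in DTEP and 5.38-fold higher in LR than in Control (log2 changes 2.01 and 2.15, limma, adjusted p = 8.80e-07 and 3.97e-07). Its call in DTEP against Control was lost without Control replicate 1 or 3 or DTEP replicate 2 or 3 and with median-of-ratios scaling, at log2 changes of 1.95 and above. DPY30 and SPAST on the other side were not called.

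ALS2CL, a neighbour of LTF, was at 9.43, 10.2 and 11.2 in Control and 236, 209 and 184 in DTP libraries, a 20.4-fold rise in DTP (log2 change 4.22, limma, adjusted p = 5.69e-08), where the LTF libraries overlapped with Control. UBE2C, a mitotic ubiquitin-conjugating enzyme with its start 342891 bases from that of WFDC2, fell 18.2-fold in DTP. It rose 37.0-fold from DTP to DTEP (limma, adjusted p = 8.95e-07 and 3.55e-08). UGT3A2, with its start 986265 bases from that of PRLR, and AMTN, 280188 bases from CSN3, fell in LR against Control. The falls were at least 22.1-fold and 20.8-fold (limma, adjusted p = 2.77e-08 and 1.29e-08). CACNA2D1, with its start 1344237 bases from that of CD36, fell at least 18.4-fold (limma, log2 change -2.01, adjusted p = 1.03e-07). It was just under the size limit without Control replicate 1 or 2, at -1.97 and -1.93, and with median-of-ratios scaling. UGT3A2, AMTN and CACNA2D1 passed the filter only through Control libraries, so the filter favoured a fall against Control. In DTP they were already 5.87-fold, 12.3-fold and 9.06-fold below Control.

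Likeness of profiles was taken as the root-mean-square distance between log2(level + 1) values over the 12 libraries, each gene centred on its own mean, as a description of libraries that share their groups. The gene nearest to ELF5 was CD44, a hyaluronan receptor, at a distance of 0.10, where the SD of the ELF5 profile itself was 2.31. CD44 had 37.4, 35.2 and 37.2 in Control, 29.5, 31.7 and 37.6 in DTP, 9.76, 4.94 and 0.281 in DTEP and 0.0845, 0 and 0.0484 in LR. GOLM1, a Golgi membrane protein, followed at 0.22. DTEP replicate 3 was the lowest DTEP library in CD44, GOLM1 and ELF5. Nearest to PRLR were ZBTB21, PIK3C2A and IKZF2 at 0.26 to 0.27, against a profile SD of 0.92. Nearest to STAT5B were DNAI1, CDON and MARCH8 at 0.28 to 0.41, against 1.07. Nearest to XDH were IL1R1, the interleukin-1 receptor, at 0.87, the calcium channel ITPR1 at 0.90 and the adenylyl cyclase ADCY2 at 0.98, against 3.34. IL1R1 had 343, 650 and 2164 in DTEP libraries, in the same order of libraries as XDH.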
